A study of Mus musculus with 6 samples.

Results

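The scaffold proteins of the postsynaptic density were described through 10 genes chosen by symbol: Dlg1, Dlg2, Dlg3, and Dlg4 of the Dlg family, Shank1, Shank2, and Shank3 of the Shank family, and Homer1, Homer2, and Homer3 of the Homer family. All 10 were among the 14477 genes with values. RNA-Seq had been done on untreated hippocampal tissues of replicates 2, 3, and 6 of the Phf21bΔ4/Δ4 genotype and replicates 5, 7, and 8 of the Phf21b+/+ genotype, with 1 mouse per library. The Phf21bΔ4 allele carries a CRISPR/Cas9 deletion within exon 4 of Phf21b, the exon that encodes its PHD finger, and it is present in the whole body and not in one cell type alone. Both genotypes were kept on a C57BL/6J background. The study used young adult littermates of both sexes between the ages of 2 and 6 months, and the age and sex of each of these 6 mice are not given in the sources used here. Each library came from total RNA after removal of ribosomal RNA, and its reads on genes with values numbered 20495605 to 24881257. Levels are given in CPM (counts scaled to effective library size), and 3 values in a row follow the order of the replicates named above.

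The postsynaptic density is the protein meshwork that lies under the membrane of excitatory synapses, opposite the site of glutamate release. Its scaffolds form layers. Dlg proteins (Dlg4 encodes PSD-95) sit next to the membrane and bind glutamate receptors and adhesion proteins through PDZ domains, DLGAP proteins link them to Shank proteins, and Homer proteins bind Shank proteins and connect them to group I metabotropic glutamate receptors and calcium channels of internal stores. In the hippocampus these proteins are known for anchoring AMPA and NMDA receptors and for shaping dendritic spines.

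Levels of 9 of the 10 scaffold genes were on average higher in Phf21bΔ4/Δ4 than in Phf21b+/+ hippocampi, but 1 gene, Homer1, passed the thresholds, which were an FDR under 0.1 together with a fold change above 1.3 (limma's moderated test on log2 CPM, 2-sided, adjusted by the Benjamini-Hochberg method over all 14477 genes). Over all genes 1.22% passed these thresholds in either direction, and 0.553% passed them with the higher level in Phf21bΔ4/Δ4 mice. Before adjustment, 3 of the 10 (Dlg2, Shank2, and Homer1) had a p under 0.05, against 23.6% of all genes. In 4 scaffold genes, Dlg2, Dlg4, Shank3, and Homer1, each Phf21bΔ4/Δ4 mouse lay above each Phf21b+/+ mouse. Such a lack of overlap was seen in 31.0% of all genes in either direction and in 15.0% with Phf21bΔ4/Δ4 mice higher. The median log2 fold change was 0.29 over the 10 scaffold genes and -0.02 over all genes. Among the 4472 genes whose mean log2 CPM lay within the range of the scaffold genes, from 5.62 to 8.86, the median was 0.09 and 65.6% had a positive value, against 47.6% of all genes.

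**Figure D1:**
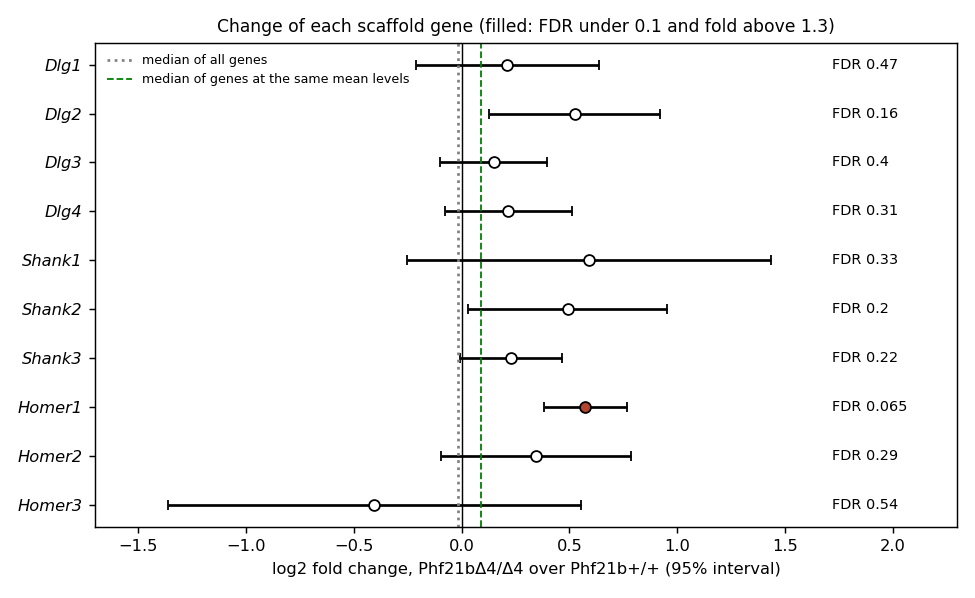
Log2 fold change of each scaffold gene, Phf21bΔ4/Δ4 over Phf21b+/+ hippocampi (x axis, no unit), with its 95% interval from limma and its FDR at the right; the filled point passed both thresholds, the dotted line marks the median of all genes and the dashed line that of genes at the same mean levels. Homer1 (0.57, FDR 0.065) is the filled point, and Homer3 is the one gene with a negative value.

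Homer1 is shown with the sequence before its start site because it is the scaffold gene that passed the thresholds and because its transcription is known to follow neuronal activity. Promoter sequences (300 bases, from 250 before to 50 after a start site) were taken from RefSeq on GRCm38.p6, in which Dlg1, Dlg2, Dlg3, Dlg4, Shank3, Homer1, Homer2, and Homer3 (8 of 10) had entries. Capitals mark the letters TGACG, the half-site of the cAMP response element bound by CREB family factors, searched on both strands, so that a match on the minus strand reads CGTCA. The windows below are parts of these promoters, all on the plus strand.
Homer1, chr13:93303671-93303772: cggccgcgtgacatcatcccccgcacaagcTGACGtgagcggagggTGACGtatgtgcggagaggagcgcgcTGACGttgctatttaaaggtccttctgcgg
Dlg3, chrX:100774387-100774446: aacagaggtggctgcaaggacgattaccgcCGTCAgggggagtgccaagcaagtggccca
Dlg4, chr11:70023876-70023935: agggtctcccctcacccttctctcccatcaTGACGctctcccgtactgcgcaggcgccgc

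Homer1 had 2 promoter entries. The one shown, before the first of its coding transcripts, held the half-site 3 times, at 56, 40, and 14 bases before the start site (positions -56, -40, and -14). Of 32851 mouse promoters of the same length, 1.03% held it at least 3 times, 5.01% at least 2 times, and 20.8% at least once; these shares are per promoter, whereas scaffold genes had 1 to 4 promoters each. Dlg3 and Dlg4 each had 1 promoter with 1 match, at -78 and -76, and the other promoters of scaffold genes, the second of Homer1 included, had no match in these 300 bases. The full element TGACGTCA, which contains the half-site, was in none of the promoters of scaffold genes and in 1.79% of all promoters. These are matches of letters, and binding was not measured in these samples.

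The targeted gene was checked first in every mouse. Phf21b had 2.15, 3.57, and 3.87 CPM in the Phf21bΔ4/Δ4 mice and 6.50, 5.23, and 6.47 CPM in the Phf21b+/+ mice. All 3 Phf21bΔ4/Δ4 mice were lower, with a log2 fold change of -0.96 (standard error 0.26) and an FDR of 0.14 by limma, so it did not pass the threshold; it passed with arrayWeights (-1.32, FDR 0.012) and without Phf21bΔ4/Δ4 replicate 6 (-1.12, FDR 0.0497). Over all genes, the last 2 fits called 3549 and 2830. The arrayWeights fit rests mostly on Phf21b+/+ replicate 8 (weight 4.63) and Phf21bΔ4/Δ4 replicate 2 (2.04), with weights of 0.34 to 1.01 for the other mice. Gene-level values include reads outside the deleted part. One library stood apart: markers of the choroid plexus, the epithelium that makes cerebrospinal fluid, summed to 15831 CPM in Phf21b+/+ replicate 7, to 991 CPM in Phf21b+/+ replicate 8, and to between 26.8 and 84.9 CPM in the other 4 mice. Phf21b+/+ replicate 7 also had the lowest level of 8 of the 10 scaffold genes (all but Homer2 and Homer3). Without it, the median log2 fold change of the scaffold genes was 0.22, and 0 of them passed both thresholds, against 14 of all genes. Leaving out any other mouse but Phf21bΔ4/Δ4 replicate 6 also left 0 scaffold genes past both thresholds.

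The Dlg genes encode the membrane-associated guanylate kinases that lie nearest to the receptors. Dlg4 (ENSMUSG00000020886.17; GRCm38 chr11:70016942-70047522, plus strand) encodes PSD-95, the scaffold that holds AMPA receptors in place through their TARP subunits. Its levels were 498, 499, and 503 CPM in Phf21bΔ4/Δ4 mice and 445, 363, and 493 CPM in Phf21b+/+ mice. The genotypes did not overlap, but the lowest Phf21bΔ4/Δ4 mouse and the highest Phf21b+/+ mouse, replicate 8, were close. The mean was 500 ± 2.47 CPM (SD, n = 3) against 434 ± 66.0 CPM (SD, n = 3), a fold change of 1.16 (95% interval 0.948 to 1.42; FDR 0.31, limma). On the log2 scale this is 0.22, and it was 0.09 without Phf21b+/+ replicate 7. The SD was 0.494% of the mean among Phf21bΔ4/Δ4 mice, less than the 1.08% that counting error alone gives at the fewest reads of this gene, and 15.2% among Phf21b+/+ mice.

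Dlg2 (ENSMUSG00000052572.17; chr7:90476672-92449247, plus strand) encodes PSD-93, which, like PSD-95, binds NMDA receptor subunits and potassium channels. The Phf21bΔ4/Δ4 mice had 463, 504, and 374 CPM, and the Phf21b+/+ mice had 306, 258, and 371 CPM. All Phf21bΔ4/Δ4 mice were above all Phf21b+/+ mice, although Phf21bΔ4/Δ4 replicate 6 and Phf21b+/+ replicate 8 were nearly level. The log2 fold change of Dlg2 was 0.52 ± 0.17 (SE; unadjusted p = 0.017 and FDR 0.16, limma), so it did not pass the threshold. It passed in 2 of the other fits, with an FDR of 0.063 when mice were weighted by arrayWeights (log2 fold change 0.40) and of 0.055 without Phf21bΔ4/Δ4 replicate 6 (log2 fold change 0.65). Over all genes, these fits called 3549 and 2830, against 176 in the main fit.

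Dlg1 (ENSMUSG00000022770.17; chr16:31663443-31875129, plus strand) encodes SAP97, a scaffold also found along the route by which AMPA receptors reach the membrane. Its levels were 162, 232, and 146 CPM in Phf21bΔ4/Δ4 mice and 161, 136, and 162 CPM in Phf21b+/+ mice. Phf21bΔ4/Δ4 replicate 3 stood above the other 5 mice, which overlapped. The difference on the log2 scale was 0.21 ± 0.18 (SE; FDR 0.47, limma), and without that mouse it was 0.02. It was 0.13 without Phf21b+/+ replicate 7 and 0.35 without Phf21bΔ4/Δ4 replicate 6.

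Dlg3 (ENSMUSG00000000881.12; chrX:100767722-100818410, plus strand) encodes SAP102, a scaffold prominent at young synapses. Levels of 237, 244, and 292 CPM were found in Phf21bΔ4/Δ4 mice and of 248, 219, and 227 CPM in Phf21b+/+ mice. Phf21bΔ4/Δ4 replicate 6 was the highest, and the other 5 mice overlapped. Dlg3 had a log2 fold change of 0.15 ± 0.10 (SE; FDR 0.40, limma), which was 0.05 without Phf21bΔ4/Δ4 replicate 6, and with quantile normalization the values of both Dlg3 and Dlg4 fell on the other side of 0, at -0.03 each. Dlg3 is X-linked. Xist, the RNA of the inactive X chromosome, was at 86.9 to 216 CPM in the 6 mice, highest in Phf21bΔ4/Δ4 replicate 3, and 0 of 4 Y-linked genes looked for had values. Whether sex or Xist bears on the level of Dlg3 was not tested.

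**Figure D2:**
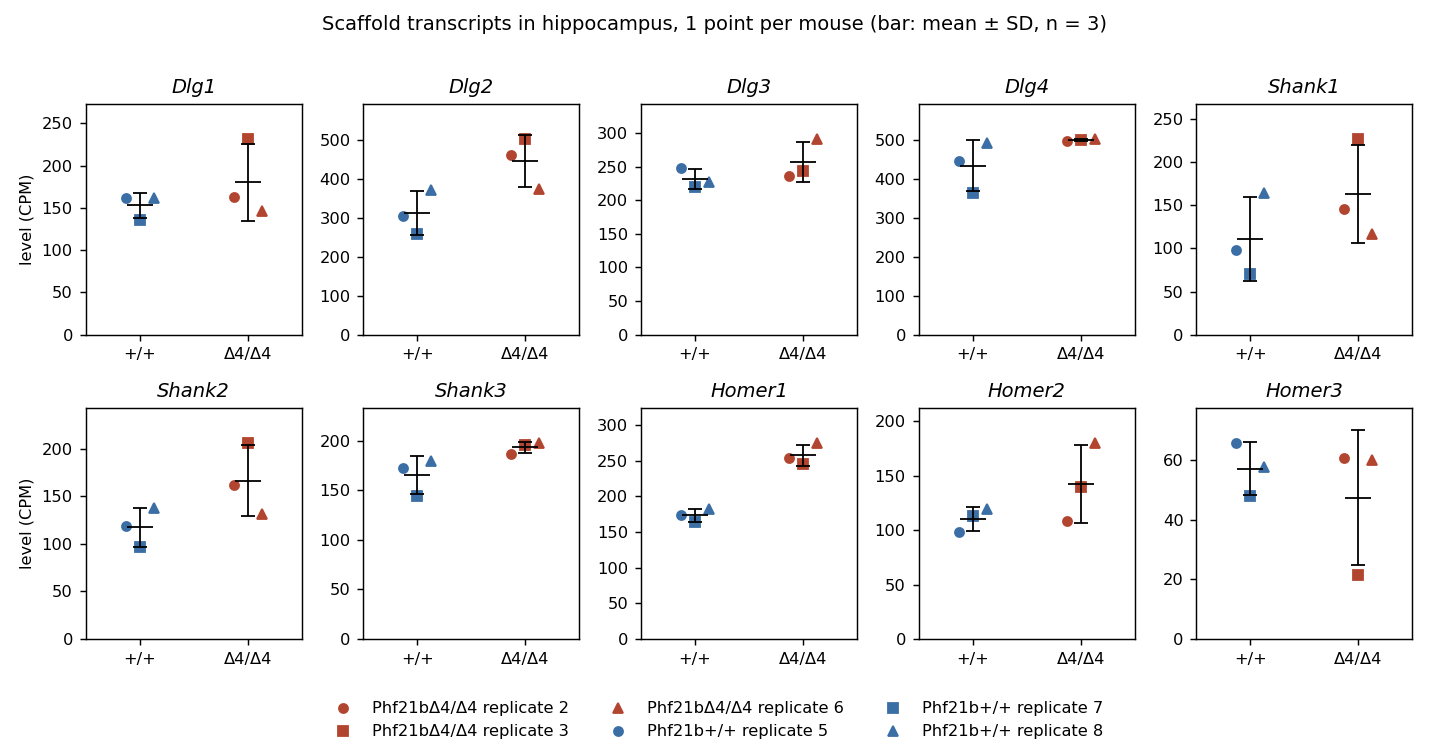
Levels of the 10 scaffold genes (y axis, CPM, starting at 0) in each mouse by genotype, with the mean and SD of 3 mice as bars. In Homer1 the Phf21bΔ4/Δ4 mice lie at 246 to 274 CPM and the Phf21b+/+ mice at 164 to 183 CPM, and in Homer3 Phf21bΔ4/Δ4 replicate 3 lies alone at 21.4 CPM.

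Shank proteins are the inner platform of the density and join the DLGAP and Homer proteins to the actin cytoskeleton. Shank3 (ENSMUSG00000022623.16; chr15:89499623-89560261, plus strand) lies 4.64 Mb from Phf21b on the same chromosome, and loss of its human counterpart is known from Phelan-McDermid syndrome. Levels of Shank3 were 187, 196, and 197 CPM in Phf21bΔ4/Δ4 mice and 172, 144, and 180 CPM in Phf21b+/+ mice. The genotypes did not overlap, and the Phf21bΔ4/Δ4 mice lay close together. Means were 193 ± 5.69 and 165 ± 18.9 CPM (SD, n = 3 each), a fold change of 1.17 (95% interval 0.996 to 1.38; FDR 0.22, limma). The log2 fold change of 0.23 was 0.13 without Phf21b+/+ replicate 7 and 0.11 after correction for transcript length.

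Shank2 (ENSMUSG00000037541.21; chr7:144001928-144424494, plus strand) had 161, 206, and 131 CPM in the Phf21bΔ4/Δ4 mice and 118, 96.4, and 137 CPM in the Phf21b+/+ mice. Of the Phf21bΔ4/Δ4 mice, replicate 6 lay within the range of the other genotype and replicates 2 and 3 above it. Shank2 had a log2 fold change of 0.49 ± 0.19 (SE; unadjusted p = 0.040 and FDR 0.20, limma). Without Phf21bΔ4/Δ4 replicate 6 it was 0.65 with an FDR of 0.067, and it passed the thresholds in that fit, as did 2830 genes in all. It was lower without Phf21bΔ4/Δ4 replicate 3 (0.33, FDR 0.38) and without Phf21b+/+ replicate 7 (0.36, FDR 0.44).

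Shank1 (ENSMUSG00000038738.15; chr7:44310253-44360572, plus strand) had the largest log2 fold change of the 10 genes but also a wide spread. Its levels were 146, 227, and 117 CPM in Phf21bΔ4/Δ4 mice and 97.8, 70.6, and 165 CPM in Phf21b+/+ mice. The genotypes overlapped, with Phf21b+/+ replicate 8 above 2 of the 3 Phf21bΔ4/Δ4 mice. The log2 fold change was 0.59 ± 0.35 (SE), with a 95% interval from -0.25 to 1.44 and an FDR of 0.33 (limma). The SD was 34.99% of the mean in Phf21bΔ4/Δ4 mice and 43.5% in Phf21b+/+ mice. It was 0.31 without Phf21b+/+ replicate 7, 0.33 without Phf21bΔ4/Δ4 replicate 3, 0.92 without Phf21b+/+ replicate 8, and 0.14 with arrayWeights. Across the Shank genes, Phf21bΔ4/Δ4 replicate 3 was highest in Shank1 and Shank2, and Phf21b+/+ replicate 7 was lowest in all 3 genes.

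Homer proteins bind proline-rich ligands with their EVH1 domain and, in their long forms, join into tetramers by a coiled coil. Homer1 (ENSMUSG00000007617.18; chr13:93299635-93405129, plus strand) had 253, 246, and 274 CPM in Phf21bΔ4/Δ4 mice and 174, 164, and 183 CPM in Phf21b+/+ mice. Each genotype was tight, and the lowest Phf21bΔ4/Δ4 mouse was well above the highest Phf21b+/+ mouse. Mean levels of 258 ± 14.7 CPM and 173 ± 9.51 CPM (SD, n = 3 each) gave a fold change of 1.49 with a 95% interval of 1.303 to 1.70. On the log2 scale Homer1 rose by 0.57 ± 0.08 (SE) with an FDR of 0.065 by limma, and Homer1 ranked 49 by p among the 14477 genes. In all 17 settings tried the log2 fold change was positive, from 0.42 to 0.65, and its FDR went from 0.0097 to 0.24. The call was lost with the same prior variance for all genes (FDR 0.12), with quantile normalization (FDR 0.11), and without any one of the mice other than Phf21bΔ4/Δ4 replicate 6, for which the FDR was 0.11 to 0.24, that is, also without Phf21b+/+ replicate 7 (0.53, FDR 0.24).

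Homer1 has a short activity-induced form, Homer1a, that lacks the coiled coil and uncouples the long forms. The annotation lists 12 transcripts of the gene, of which 11 are coding, with coding lengths from 540 to 1110 bases. Values per gene cannot tell the short form from the long forms, so which of them rose was not measured.

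Homer2 (ENSMUSG00000025813.14; chr7:81600481-81707527, minus strand) encodes a long form of the family. It had 108, 139, and 180 CPM in Phf21bΔ4/Δ4 mice and 97.9, 113, and 120 CPM in Phf21b+/+ mice. Phf21bΔ4/Δ4 replicates 3 and 6 were above all Phf21b+/+ mice and replicate 2 was within their range. The genotypes thus overlapped, at a log2 fold change of 0.35 ± 0.19 (SE; FDR 0.29, limma). Leaving out Phf21bΔ4/Δ4 replicate 6 lowered it to 0.16, and leaving out Phf21bΔ4/Δ4 replicate 2 raised it to 0.53.

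Homer3 (ENSMUSG00000003573.15; chr8:70282827-70294361, plus strand), best known from cerebellar Purkinje cells and also a long form, was the gene with a negative value. Its levels were 60.8, 21.4, and 60.1 CPM in Phf21bΔ4/Δ4 mice and 65.6, 48.1, and 57.8 CPM in Phf21b+/+ mice. The low value was that of Phf21bΔ4/Δ4 replicate 3 alone (450 reads), while the other 2 Phf21bΔ4/Δ4 mice lay within the range of the Phf21b+/+ mice. The log2 fold change was -0.41 ± 0.40 (SE; FDR 0.54, limma), and without that mouse it was 0.09. Without Phf21bΔ4/Δ4 replicate 2 or 6 it was -0.66 or -0.65. Of the stretches of read length, 75 bases, along the transcripts of Homer3, 18.8% also lie in Ddx49, a gene on the opposite strand, and the strandedness of the counting is not stated. The same share was 2.8% in Shank1, 2.43% in Homer2, 2.12% in Shank3, and at most 0.475% in the other scaffold genes, none of which shared such a stretch with another scaffold gene.

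Next, genes of 1 family were set against each other within each mouse, since a ratio within a library does not depend on how the library was scaled. In 1 of 12 pairs, Homer1 and Homer3, the genotypes did not overlap. The log2 ratio of Homer1 to Homer3 in CPM was 2.06, 3.52, and 2.19 in Phf21bΔ4/Δ4 mice and 1.41, 1.77, and 1.66 in Phf21b+/+ mice. It was higher in all 3 Phf21bΔ4/Δ4 mice, by 0.98 on average (exact permutation test over mice, 2-sided, p = 0.1, the smallest p that 3 against 3 mice allow; 0.6 after adjustment over the 12 pairs). Without Phf21bΔ4/Δ4 replicate 3 the difference was 0.51. In the other 11 pairs the genotypes overlapped, and the exact p was 0.2 or more.

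As a share of the summed level per kb of exon in the family, Homer1 was 44.6%, 54.3%, and 42.0% in Phf21bΔ4/Δ4 mice and 35.1%, 37.4%, and 36.7% in Phf21b+/+ mice. Homer3 had shares of 37.3%, 16.5%, and 31.98% in Phf21bΔ4/Δ4 mice and of 46.1%, 38.2%, and 40.5% in Phf21b+/+ mice. Neither overlapped between genotypes, Homer1 being higher (47.0% ± 6.51 against 36.4% ± 1.16, SD, n = 3 each) and Homer3 lower (28.6% ± 10.8 against 41.6% ± 4.07) in Phf21bΔ4/Δ4 mice, with an exact permutation p of 0.1 each and 0.5 after adjustment over the 10 genes. Without Phf21bΔ4/Δ4 replicate 3 the difference in share was 6.90 percentage points for Homer1 in place of 10.6, and -6.98 for Homer3 in place of -13.0. Homer2 took 24.4% ± 5.72 and 22.0% ± 2.91 (SD, n = 3 each), and its genotypes overlapped. Shares of all 4 Dlg and all 3 Shank genes overlapped. Dlg4 made up 29.97% ± 1.26 of the Dlg family in Phf21bΔ4/Δ4 and 30.8% ± 1.69 in Phf21b+/+ mice, and Shank3 made up 41.2% ± 6.82 and 46.3% ± 4.85 of the Shank family (SD, n = 3 each).

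**Figure D3:**
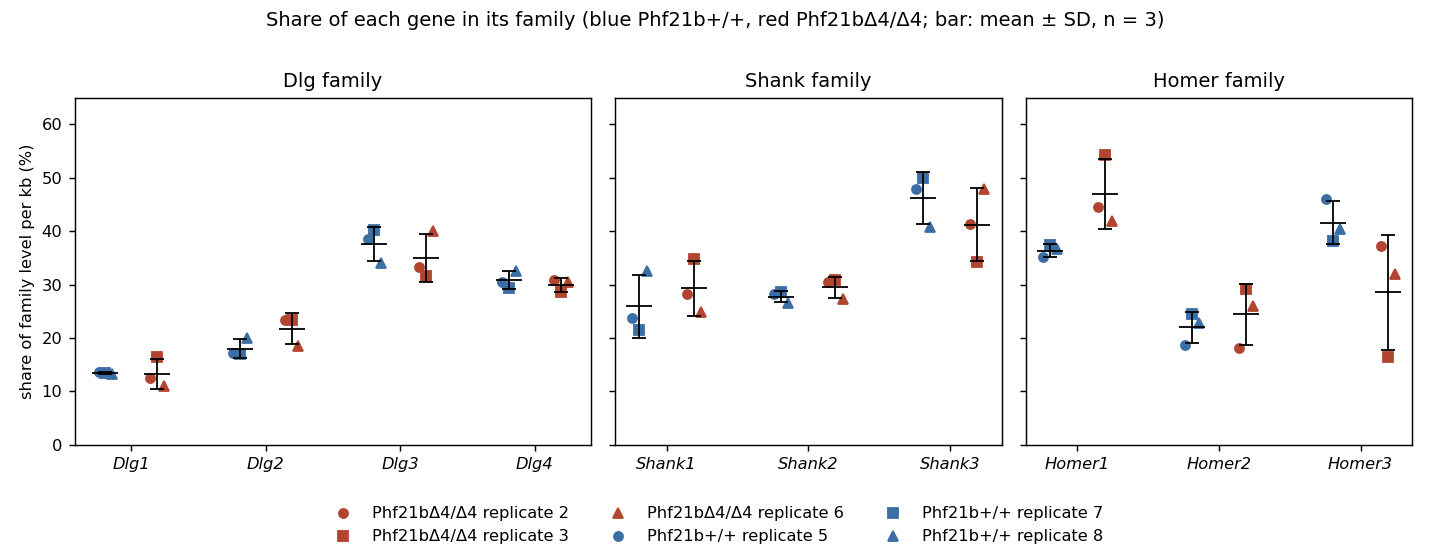
Share of each gene in the summed level of its family (y axis, % of CPM per kb of exon union) in each mouse, blue for Phf21b+/+ and red for Phf21bΔ4/Δ4, with the mean and SD of 3 mice as bars. Homer1 and Homer3 are the genes whose genotypes do not overlap; the low red square of Homer3, at 16.5%, is Phf21bΔ4/Δ4 replicate 3.

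Levels of different genes were compared per kb of exon, as the mean ± SD over the 6 mice. Dlg3 was highest with 41.8 ± 4.34 CPM per kb, followed by Dlg4 with 35.2 ± 4.17 and Dlg2 with 23.3 ± 5.67. The order went on with Shank3 (19.5 ± 2.14), Homer1 (18.0 ± 3.98), Dlg1 (15.5 ± 3.13), Homer3 (15.2 ± 4.71), Shank2 (13.2 ± 3.52), Shank1 (13.1 ± 5.27), and Homer2 (9.999 ± 2.34). The ranges of all neighbours in this order overlapped, although Dlg3 was above Dlg4, Dlg4 above Dlg2, and Dlg2 above Shank3 in each of the 6 mice. Genotype means gave partly different orders: in Phf21bΔ4/Δ4 mice Homer1 (21.5) was above Shank3 (21.0), and Homer3 (13.8) was below Shank1 and Shank2, while in Phf21b+/+ mice Homer1 (14.5) was below Shank3 (18.0) and Homer3 (16.6). The order also depends on the length taken. With the longest transcript in place of the exon union, Dlg4 led with 73.8 ± 8.74 CPM per kb, above Dlg3 with 48.7 ± 5.06 in all 6 mice, and the lowest places were still held by Shank2, Shank1, and Homer2.

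The proteins that the scaffolds bind were described through lists of known partners, in CPM and as log2 fold changes. DLGAP proteins link Dlg to Shank proteins. All 4 DLGAP genes had positive log2 fold changes and no overlap between genotypes, with a median of 0.48, but 0 of 4 passed the thresholds. Over all genes, 47.6% had a positive value and 15.0% had all Phf21bΔ4/Δ4 mice higher. Among genes at the mean levels of the scaffold genes, 65.6% had a positive value. The counts of each list below are to be read beside these shares. FDRs are those of limma throughout. Dlgap1, with the largest mean CPM, was at 674 ± 35.6 CPM in Phf21bΔ4/Δ4 and at 552 ± 51.1 CPM in Phf21b+/+ mice (SD over 3 mice; log2 fold change 0.29, FDR 0.17). Dlgap2 had the largest value, with 56.6 ± 11.1 against 36.4 ± 10.3 CPM (0.66, FDR 0.17), while Dlgap3 was at 0.38 (FDR 0.15) and Dlgap4 at 0.58 (FDR 0.18).

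Other scaffolds with PDZ domains differed less on average. Of 14, 0 passed the thresholds, 10 had a positive log2 fold change, and the median was 0.17. Apba2, a presynaptic adaptor of the Mint family, was at 0.46 (FDR 0.14), Apba1 at 0.18 (FDR 0.62), and Magi2, a scaffold with several PDZ domains, at 0.16 (FDR 0.32). Lin7c, the partner of CASK, was at -0.47 (FDR 0.17), with all Phf21bΔ4/Δ4 mice below all Phf21b+/+ mice.

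Among 18 signalling enzymes and adaptors of the postsynaptic density, 1 passed the thresholds, 16 had a positive value, and the median was 0.33. The one that passed was Akap5 (AKAP79/150), which anchors protein kinase A and calcineurin to PSD-95. Akap5 had 161, 203, and 148 CPM in Phf21bΔ4/Δ4 mice and 92.2, 88.3, and 98.2 CPM in Phf21b+/+ mice. All 3 Phf21bΔ4/Δ4 mice were higher, with a log2 fold change of 0.86 ± 0.13 (SE; FDR 0.067, limma). It passed in 12 of 17 other fits, with an FDR of up to 0.24, and in 2 of the 6 that left out a mouse (without Phf21bΔ4/Δ4 replicate 3 or 6). The genes of the list with the largest mean CPM did not pass: Kalrn was at 0.13 (FDR 0.65), Agap2 at 0.24 (FDR 0.31), Nsmf at 0.03 (FDR 0.92), and Cnksr2 at 0.42 (FDR 0.19).

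Of the 9 ligands of Homer proteins, 0 passed, 7 had a positive value, and the median was 0.24. Grm5, the metabotropic glutamate receptor that Homer1 tethers, had 749, 718, and 636 CPM in Phf21bΔ4/Δ4 mice and 510, 473, and 511 CPM in Phf21b+/+ mice. The genotypes did not overlap, and the log2 fold change of 0.49 had an FDR of 0.11. Itpr1, the IP3 receptor, was at 0.28 (FDR 0.21) and Ryr2, a ryanodine receptor, at 0.33 (FDR 0.27), both without overlap, and Agap2 is also on the previous list.

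The receptors, TARPs, and adhesion proteins bound by Dlg or Shank scaffolds had the second highest median of the lists, 0.45, with 0 of 16 past the thresholds. A positive value was found in 13 of 16, against 47.6% of all genes and 65.6% of genes at the mean levels of the scaffold genes. In 8 of 16 all Phf21bΔ4/Δ4 mice were higher, against 15.0% of all genes, and in 1 of 16 all were lower. Grin2b, the NMDA receptor subunit GluN2B, had 1282, 1383, and 1036 CPM in Phf21bΔ4/Δ4 mice and 665, 496, and 735 CPM in Phf21b+/+ mice. It was higher in all 3 Phf21bΔ4/Δ4 mice, by 0.97 on the log2 scale, and its FDR of 0.1003 was just outside the threshold. It passed in 7 of 17 other fits, with an FDR from 0.012 to 0.32. Grin1 was at 0.59 (FDR 0.12), Grin2a at 0.54 (FDR 0.16), and Adam22, the receptor of LGI1, at 0.41 (FDR 0.13).

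Because the short form of Homer1 is an immediate early gene, 16 immediate early genes were described beside it. Of these 1 passed, 12 had a positive value, and the median was 0.13. Nr4a1, an orphan nuclear receptor, was the one that passed, with 24.3 ± 0.923 CPM in Phf21bΔ4/Δ4 and 14.4 ± 0.635 CPM in Phf21b+/+ mice (SD over 3 mice; log2 fold change 0.76, FDR 0.046, limma). It passed in 13 of 17 other fits, with an FDR of up to 0.19, and in 2 of the 6 that left out a mouse (without Phf21bΔ4/Δ4 replicate 3 or 6). Egr1 had the largest log2 fold change of the list, 0.92 (FDR 0.12), and did not pass. In 3 of the 16 genes, Nr4a1 and Egr1 among them, all Phf21bΔ4/Δ4 mice were higher, against 15.0% of all genes. In 1 of the 16 all were lower. Arc, which acts on AMPA receptor endocytosis, had 85.4 ± 16.4 and 81.5 ± 19.1 CPM (0.08, FDR 0.83), Bdnf was at -0.27 (FDR 0.57), Nr4a2 at 0.54 (FDR 0.53), and Egr3 at 0.09 (FDR 0.69).

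**Figure D4:**
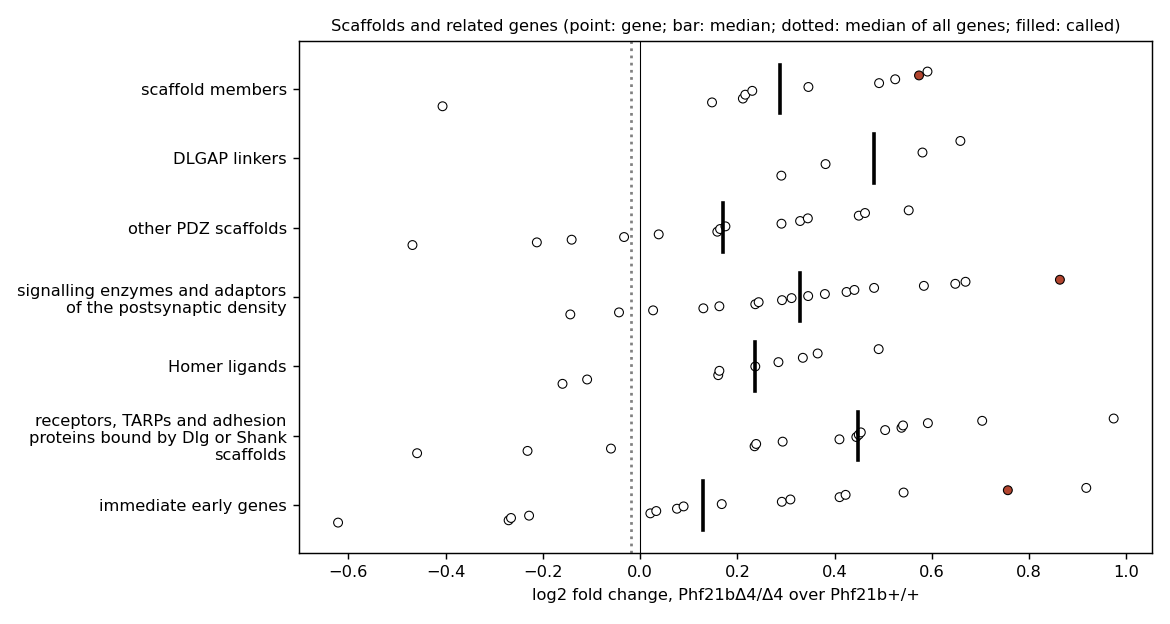
Log2 fold changes, Phf21bΔ4/Δ4 over Phf21b+/+ hippocampi (x axis), of the 10 scaffold genes and of 6 lists of related genes (rows), with 1 point per gene, a bar at each median, and a dotted line at the median of all genes. Filled points passed both thresholds (Homer1, Akap5, and Nr4a1), and the medians run from 0.13 for immediate early genes to 0.48 for DLGAP linkers.

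The genes most like 3 scaffold genes in their levels were sought by Pearson's r of log2 CPM over the 6 mice among the 10477 genes that averaged 3 or more on the log2 CPM scale, as a description of these mice with no test. For Homer1 they were Cdh10, a cadherin (r = 0.997), Strn, the scaffold striatin (r = 0.993), and Pcdhga2, a protocadherin of the gamma cluster whose genes share exons (r = 0.992). Cdh10 (log2 fold change 0.51, FDR 0.062) and Pcdhga2 (0.73, FDR 0.087) passed the thresholds and Strn (0.27, FDR 0.13) did not. Both calls held in 11 of 17 other fits and, of the 6 that left out a mouse, without Phf21bΔ4/Δ4 replicate 6 alone. For Dlg4 they were Rtn4rl2 (r = 0.997), Soga1 (r = 0.997), and Rabep1 (r = 0.984), and for Shank3 Rabep1 (r = 0.993), Dmtf1 (r = 0.989), and Carmil2 (r = 0.985), none of which passed. With 6 points and so many genes, values of this size are read as a ranking only.

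Scaffold genes are transcribed in most neurons, so markers of the cell types and regions that a hippocampal dissection can hold were set beside them, and in bulk tissue fewer cells of a type and less RNA per cell cannot be told apart. All 7 CA1, all 9 CA2 and CA3, and all 9 dentate granule cell markers had reads in every mouse. So did all 8 thalamic markers, and the presence of reads therefore cannot tell these regions apart. Markers of CA1 pyramidal neurons summed to 996 to 1100 CPM in Phf21bΔ4/Δ4 mice and to 409 to 455 CPM in Phf21b+/+ mice, and 3 of 7 passed the thresholds as higher. GABAergic interneuron markers summed to 698 to 849 against 475 to 541 CPM. Of the 8, all had a positive log2 fold change and 1 passed the thresholds. Both sums were higher in all 3 Phf21bΔ4/Δ4 mice, as were the levels of Dlg2, Dlg4, Shank3, and Homer1.

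Markers of dentate granule cells summed to 258, 217, and 723 CPM in Phf21bΔ4/Δ4 mice and to 880, 750, and 772 CPM in Phf21b+/+ mice, with 0 of 9 past the thresholds. Phf21bΔ4/Δ4 replicates 2 and 3 were low in these markers and replicate 6 was near the Phf21b+/+ mice, and replicate 6 was the lowest of the Phf21bΔ4/Δ4 mice in Dlg1, Dlg2, Shank1, and Shank2 but the highest of all 6 mice in Dlg3, Dlg4, Shank3, Homer1, and Homer2. CA2 and CA3 markers summed to 280 CPM in Phf21bΔ4/Δ4 replicate 3, the mouse with the low Homer3, and to between 523 and 663 CPM in the other 5 mice. Markers of the medial habenula summed to 5.002 to 8.56 CPM in Phf21bΔ4/Δ4 mice and to 152 to 215 CPM in Phf21b+/+ mice. All 10 passed the thresholds as lower, against 1.22% of all genes in either direction. In every Phf21bΔ4/Δ4 mouse, 4 of the 10 had 3 reads or fewer. Most of the 10, Chat and Gpr151 among them, were already reported as changed in these libraries by the paper. That count was therefore largely set by the choice of the list. Thalamic markers summed to 191 to 315 against 341 to 609 CPM. Of the 8, 7 had a negative log2 fold change and 1 passed the thresholds as lower. Choroid plexus markers, whose sums are given above, all had a negative log2 fold change, and 1 of 8 passed the thresholds as lower. Sums overlapped between genotypes for astrocytes (6312 to 7472 against 5665 to 7130 CPM), oligodendrocytes (6021 to 9166 against 7225 to 10003 CPM), microglia (450 to 500 against 456 to 486 CPM), and endothelial cells (132 to 170 against 94.4 to 139 CPM). Of the 8 astrocyte markers, 4 had a negative log2 fold change and 1 passed the thresholds as lower. In the lists of oligodendrocytes, microglia, and endothelial cells 0 passed. The part of these differences in the levels of the scaffold genes was not tested.

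**Figure D5:**
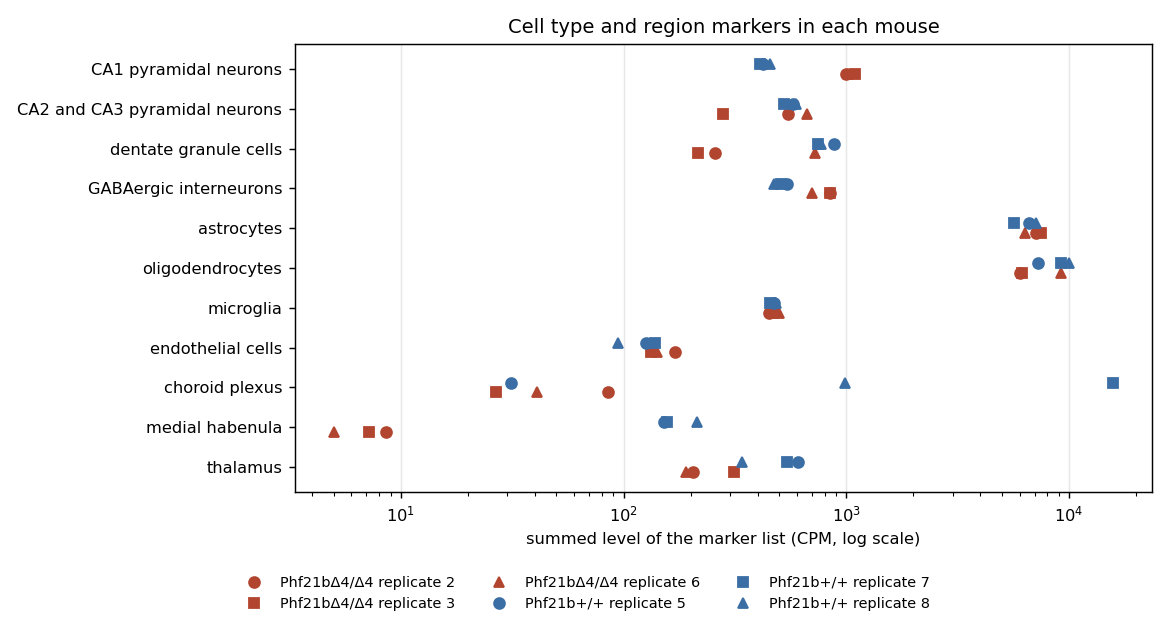
Summed level of each list of marker genes (x axis, CPM, log scale) in each mouse, red for Phf21bΔ4/Δ4 and blue for Phf21b+/+, with the shape giving the replicate. CA1, dentate granule cell, interneuron, medial habenula, and thalamic markers do not overlap between genotypes, and choroid plexus markers of Phf21b+/+ replicate 7 lie far to the right at 15831 CPM.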

How the data were processed

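RNA-Seq values of 6 mice (1 library each; 3 Phf21bΔ4/Δ4, 3 Phf21b+/+) were used, with genotypes taken from the sample labels. The authors trimmed single-end 75-base reads with Trimmomatic 0.39, mapped them to GRCm38 with STAR 2.7.3a, counted reads per GENCODE gene with featureCounts (Subread 1.6.4), dropped genes that did not reach a CPM of 1 in 2 or more samples, and deposited log2 CPM values scaled to effective library size by edgeR. The prior count and the strandedness of counting are not given in the sources used here. Because low values rose in steps of 1 read, reads and CPM were worked out from them, with 100.0% of values whole within 0.1 reads. Means and SDs are of this CPM. A level of 3 reads was 0.127 to 0.143 CPM, and the scaffold genes had 450 to 11810 reads, so that counting error was at most 1.08% (Dlg4) to 4.71% (Homer3) of a level and covers counting only. Permutation p-values rest on the values of these 6 mice alone. Those of limma rest on the spread between these mice together with a prior variance estimated over all genes.

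The comparison of genotypes used limma (version 3.58.1, under R 4.3.3), with lmFit and eBayes, a prior variance that followed mean expression, and no covariate, on the log2 values of all 14477 genes, since log2 CPM does not allow the count test of the study, and with its thresholds (FDR under 0.1, fold change above 1.3). The fit was tested on simulated data with the same dispersion for all genes and no differences in dissection. Such data test how the fit runs and cannot vouch for the calls in these mice. Ratios and shares were compared by exact permutation over mice. Lengths, positions, and shared stretches came from GENCODE M21 on GRCm38, in which 98.8% of the listed genes were found. The members and all lists were chosen with earlier results of these data known. Genes named are the scaffold genes, Phf21b, related genes that passed, up to 4 more of each list with the largest mean CPM, and the 3 genes nearest in pattern to the gene with the largest mean CPM in each family. Egr1 was named in addition, after its value was seen. Alternatives were the prior variance, robust empirical Bayes, arrayWeights, a filter at a mean log2 CPM of 1, pseudocounts of 1 and 0.1, quantile normalization, median centring, an FDR under 0.05, voom on recovered reads, no fold threshold, the longest transcript as length, and leaving out each mouse; corrections for GC content and transcript length were added after seeing the data, as were the alternative fits of Phf21b, Akap5, Grin2b, Nr4a1, Cdh10, and Pcdhga2. Scripts ran in Python 3.11.15 with SciPy 1.17.1, NumPy 2.4.6, and pandas 2.3.3, and matplotlib 3.10.9 drew the plots.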

Additional observations from a re-analysis of the deposited data

How the results depend on the processing

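The study used littermates, but no paired analysis was possible because the litter of each mouse is not given in the sources used here. The number of scaffold genes past both thresholds, 1 as reported, was 0 with the same prior variance for all genes, with quantile normalization, and at an FDR under 0.05, was 2 (Dlg2 and Homer1) with arrayWeights, and ranged from 0 to 3 when each mouse was left out (3, namely Dlg2, Shank2, and Homer1, without Phf21bΔ4/Δ4 replicate 6, and 0 without any other). Over all genes the 176 calls became 75 with the same prior variance for all genes and 3549 with arrayWeights. They became 101 with the filter on low levels and 25 at an FDR under 0.05. With each mouse left out they ranged from 9 (without Phf21b+/+ replicate 8) to 2830 (without Phf21bΔ4/Δ4 replicate 6). The log2 fold change of Homer1 was 0.57 with an FDR of 0.12 under the same prior variance and 0.42 with quantile normalization, and 0.53 to 0.61 with each mouse left out. Scaffold genes without overlap numbered 4 as reported, 1 with quantile normalization, and 2 after correction for transcript length. Their median log2 fold change was 0.29 as reported, 0.11 with arrayWeights, 0.14 after correction for transcript length, and 0.17 with quantile normalization. The same settings lowered single values by over 1.5 times, as for Dlg4 (0.08 with arrayWeights, 0.12 with the length correction), Shank3 (0.11 with each), Homer2 (0.07 and 0.15), and Dlg2 (0.29 with quantile normalization). Directions turned for Dlg3 and Dlg4 with quantile normalization (to -0.0302 and -0.0305). With each mouse left out, the log2 fold change of Homer3 ranged from -0.66 to 0.0921, the difference between genotypes in log2 ratio from -0.17 to 0.29 for Dlg1/Dlg3, from -0.20 to 0.13 for Dlg1/Dlg4, from -0.18 to 0.0171 for Dlg3/Dlg4, and from -0.0475 to 0.31 for Shank1/Shank2, and the difference in family share from -1.79 to 0.914 percentage points for Dlg1 and from -1.64 to 0.0336 for Dlg4. The cause of these changes was not tested. Of 491 recomputed values, 14 changed sign, each for a gene, ratio, or share that did not pass a test. For ratios, shares, and single genes other than Homer1, 362 values kept their direction. Of these, genes also kept their side of the threshold, shares moved by under 1 SD, and ratios had no threshold. A further 21 values of single genes lost a call and 12 gained one. Among the counts, the median, and Homer1, 52 values stayed, 23 moved, and 7 lost the call. With 3 mice per genotype an exact test cannot go below 0.1.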
